A study of Mus musculus with 12 samples.

Results

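Retinoic acid is a signal that is made, broken down, bound and read through a small set of proteins. The chromatin at 10 of their genes was examined in mouse forelimb buds with and without WNT signaling. The set holds the synthesizing enzymes Aldh1a2 and Aldh1a3, the degrading enzymes Cyp26a1, Cyp26b1 and Cyp26c1, the receptors Rara, Rarb and Rarg, and the cellular retinoic acid-binding proteins Crabp1 and Crabp2. It was chosen by gene function, and a ChIP-seq summit was counted for a gene when it lay within 100 kb of the gene body on mm10. These 10 genes are among 21911 protein-coding genes of chromosomes 1 to 19, X and Y, and their windows held 41 of the 16238 consensus β-catenin summits and 93 of the 31466 consensus H3K27ac summits of the DMSO controls.

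Retinoic acid is made from retinaldehyde by ALDH1A enzymes, of which ALDH1A2 supplies the flank next to the early limb bud, and it is oxidized by CYP26 enzymes, of which CYP26B1 clears it from the distal bud. The signal acts through RAR receptors, which bind direct repeats of a short half-site together with RXR partners and recruit co-repressors or co-activators depending on the ligand. Rarb and Cyp26a1 are textbook targets of the receptors, so that the pathway feeds back on its own levels. β-Catenin is the nuclear effector of canonical WNT signaling and reaches DNA through TCF/LEF factors, and H3K27ac marks active promoters and enhancers.

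Forelimb buds came from wild-type Swiss Albino embryos whose mothers were injected at E10.5 with C59, which inhibits porcupine and so prevents WNT secretion, at 10 µg/g, or with its solvent DMSO, the wild-type control. By the paper's methods the C59 injection also held methylcellulose and a detergent, and the controls received DMSO in PBS. The buds were collected 6 h later, and chromatin was immunoprecipitated with antibodies against β-catenin or H3K27ac. Each antibody and treatment has 2 biological replicates, each of 20 pooled forelimb buds from embryos of both sexes, and p-values measure the spread between such pools. The buds were used whole, so fewer cells with an occupied site and lower occupancy in each cell cannot be told apart, and canonical and non-canonical WNT signals were blocked together.

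Every row of the deposited lists is 1 summit with its fold enrichment, which is the fragment coverage over the coverage that the peak caller expected from the surroundings. Replicate lists held 20203 and 25836 β-catenin summits in DMSO controls and 330 and 358 after C59, and between 33180 and 37935 H3K27ac summits. Sequencing depth, read back from fold enrichment and p, was 2.93 and 3.39 Gb of fragments for β-catenin in DMSO controls, 3.42 and 3.40 Gb after C59, and 5.03 to 5.93 Gb for H3K27ac. All 6 forelimb mesenchyme markers (Tbx5, Prrx1, Hand2, Msx1, Meox2 and Lhx9) carried a consensus H3K27ac summit at a transcriptional start site (TSS) in DMSO controls, and 5 did after C59, Meox2 not being listed. Of the markers of other tissues, the hindlimb gene Tbx4 and the muscle precursor gene Lbx1 carried one in both treatments, and Isl1 and Cdh5 after C59. None of the 5 markers of limb ectoderm did, nor any of blood (3), heart (2), neural tube (3) or flank mesoderm (3).

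Reference sequences at these loci that match the motifs searched for TCF/LEF factors and for RAR receptors are shown first. TCF/LEF factors recognize a core that was searched as ATCAAAG or TTCAAAG on both strands of the 200 bp around each summit, and 7 of the 41 DMSO consensus summits had one. The strongest such summit of each gene window is given with 22 bases to either side of the core, in mm10, with the core in capitals and on the strand on which it reads as searched.
Rarb intron, chr14:16526010-16526060, minus strand: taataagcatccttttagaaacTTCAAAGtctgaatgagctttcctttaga
Upstream end of the Rarg window, chr15:102355893-102355943, plus strand: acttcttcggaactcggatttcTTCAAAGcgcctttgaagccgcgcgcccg
Rara window, in an intron of Tns4, chr11:99071802-99071852, minus strand: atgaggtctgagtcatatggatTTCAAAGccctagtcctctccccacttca
Crabp1 window, in an intron of Dnaja4, chr9:54703500-54703550, plus strand: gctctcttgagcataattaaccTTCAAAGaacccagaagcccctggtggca
Downstream of Cyp26b1, chr6:84477194-84477244, minus strand: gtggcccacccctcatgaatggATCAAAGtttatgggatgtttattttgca
The window in the Rarg locus held 2 cores and the others 1 each.

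Direct repeats that RAR and RXR can bind were searched on both strands as pairs of half-sites spaced by 1, 2 or 5 bases. Allowed half-sites were AGGTCA, its variant GGGTCA, the variant AGTTCA and the variant GGTTCA, in any pairing. RefSeq promoter sequences (GRCm38.p6, windows of 300 bases that reach from upstream of a start to just past it) were found for 8 of the 10 genes, 12 promoters in all, and those of Aldh1a3 and Crabp2 were not found by symbol. A repeat with 5 bases between the half-sites (DR5) was present in 2 of the 12 promoters, against 0.0974% of all 32851 promoters. No repeat with 1 or 2 bases was found in the 12. The element of Rarb ends 37 bases before the RefSeq start, and that of Cyp26a1 16 bases before it. Both are shown with 11 bases to either side, the half-sites in capitals.
Rarb promoter, chr14:16575502-16575540, minus strand: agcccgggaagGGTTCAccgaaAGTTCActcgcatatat
Cyp26a1 promoter, chr19:37697765-37697803, minus strand: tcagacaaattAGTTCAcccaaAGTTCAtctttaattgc
Of the 41 β-catenin windows none held a repeat of any of the 3 spacings, and of all 16193 windows 0.685% did. These matches describe letters in the reference and not occupancy by a receptor, which was not measured.

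β-Catenin occupied the surroundings of 9 of the 10 genes in DMSO controls and was called at none of them after C59. The DMSO replicates listed 48 and 56 summits within the windows, a mean of 52 ± 5.66 (SD, n = 2), and the C59 replicates listed 0 and 0. The replicate counts did not overlap, and the exact two-sided permutation test gave p = 0.3333, the smallest value that 2 against 2 samples allow. At single genes the counts of DMSO and C59 replicates did not overlap for 9 of the 10, all but Cyp26c1. That share has to be read against the background of the genome, as 82.8% of the 17215 protein-coding genes with a β-catenin summit in any library showed the same pattern.

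None of the 41 DMSO consensus summits lay inside a C59 consensus peak (0%, 95% Wilson interval 0 to 8.57%), and 1.35% of all 16238 did. By the plainer limit of 3 counts of the total, 0 of 41 allows a share of up to 7.32%. The threshold of the C59 lists was higher than that of the DMSO lists, since the lowest −log10 p listed was 8.92 in the C59 consensus and 3.69 in the DMSO consensus. Of the 41 summits, 38 had a −log10 p above 8.92 in DMSO controls, and none of these 38 was called after C59. A summit that is not listed is one that was not detectable at this threshold, not one shown to be absent.

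**Figure D1:**
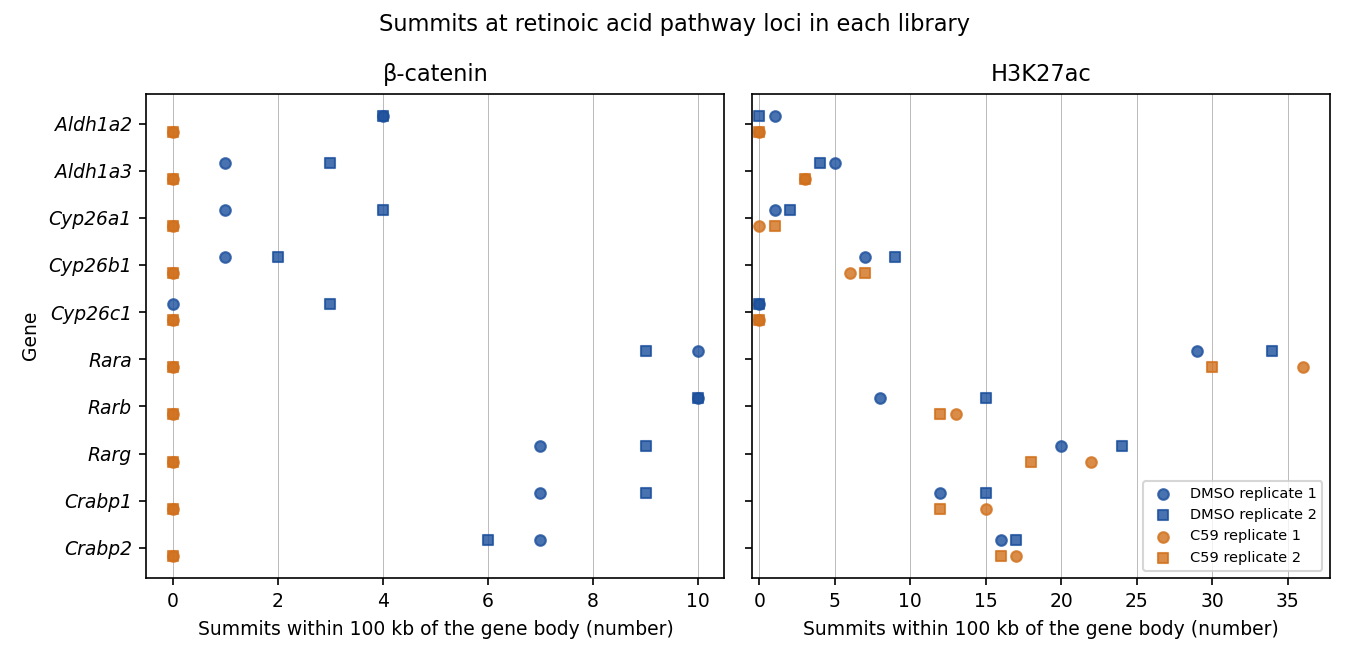
Number of summits within 100 kb of each gene (x axis) in each replicate list, for β-catenin (left) and H3K27ac (right), with DMSO in blue, C59 in orange, circles for replicate 1 and squares for replicate 2. All C59 points for β-catenin sit at 0, whereas for H3K27ac the DMSO and C59 points of most genes interleave, with up to 36 summits at Rara.

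The receptor genes and Crabp1 had most of the β-catenin summits. The DMSO consensus list gave 12 summits to Rara, 7 to Rarb, 6 to Crabp1, 5 each to Rarg and Aldh1a2, 3 to Crabp2, 1 each to Aldh1a3, Cyp26a1 and Cyp26b1, and 0 to Cyp26c1. The median over all protein-coding genes was 1, and 41.2% had none. As many as Rara were found at 0.849% of genes, as many as Rarb at 2.94% and as many as Crabp1 at 4.48%. Rarb spans 388 kb and its window 588 kb, against 205 kb for Crabp2, and per length of window Rarb had 11.9 summits per Mb, Crabp1 28.8 and Rara 48.6. By this density 16.4% of all genes matched or exceeded Rarb, and 0.365% Rara. The place of Rara depended on the width of the window. Within 50 kb it had 4 summits, fewer than the 7 of Rarb and the 5 each of Crabp1 and Aldh1a2.

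A window of 100 kb also takes in neighbors. For 25 of the 41 summits the nearest TSS of a protein-coding gene was that of 1 of the 10 genes, and for 16 it was that of another gene. The Rara window includes 8 other protein-coding genes and the Rarg window 13, whereas those of Rarb, Aldh1a2 and Cyp26b1 each include 1. Of the summits, 20 lay in introns, 17 between genes and 4 in UTRs. Their fold enrichment ranged from 2.74 to 13.0 with a median of 6.45, and the median of all 16238 summits was 6.75.

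**Figure D2:**
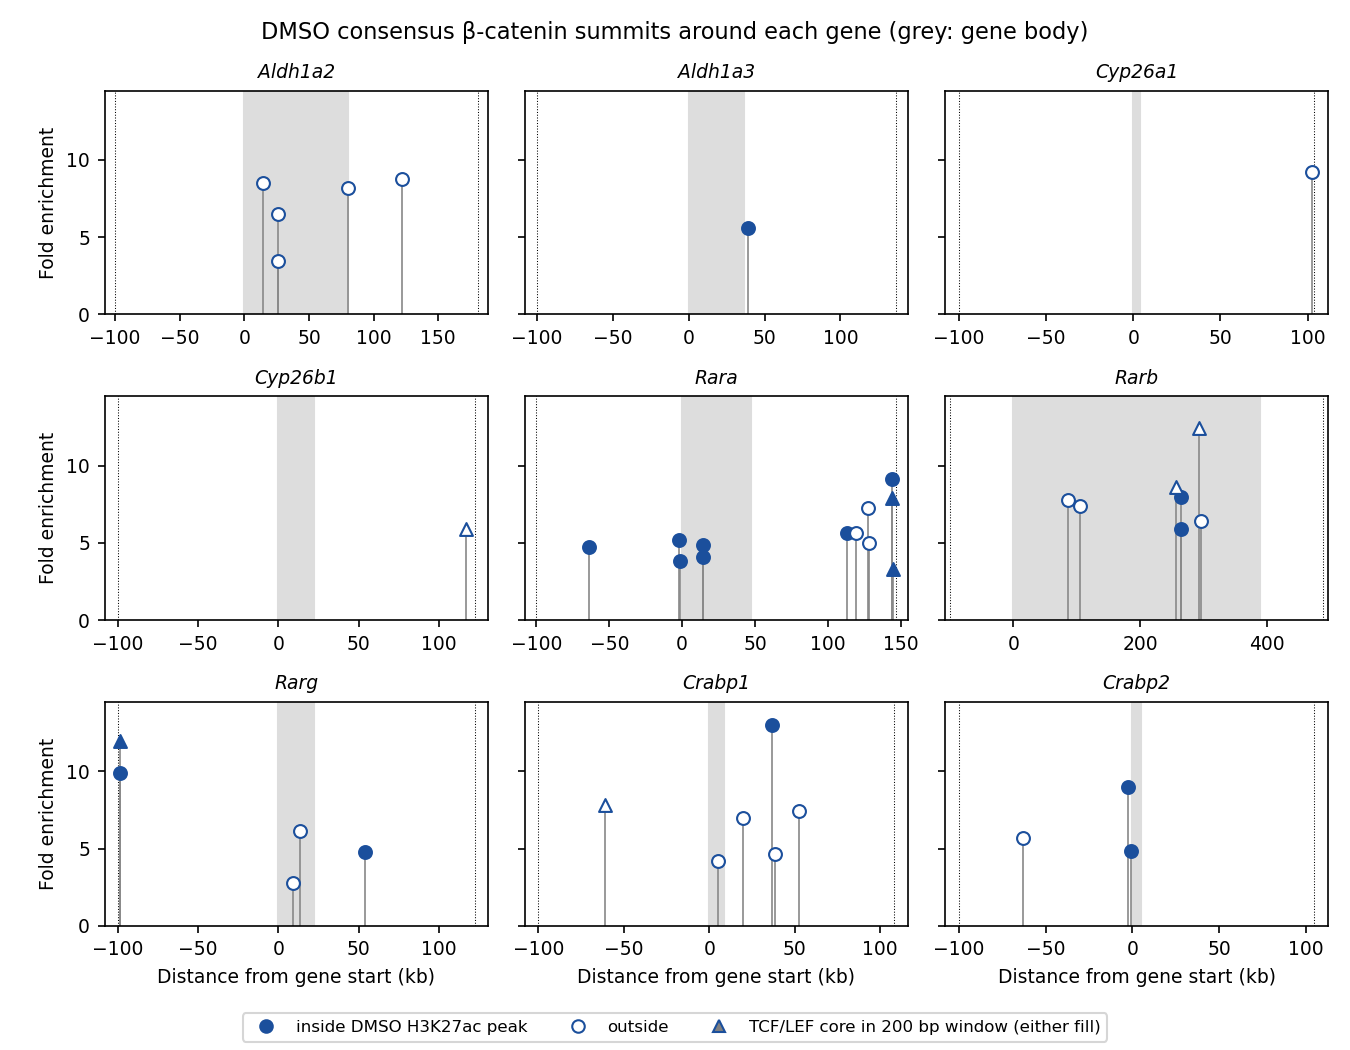
Fold enrichment (y axis) of each DMSO consensus β-catenin summit against its distance from the annotated gene start in kb (x axis, positive into the gene), 1 panel per gene with a summit; grey marks the gene body, dotted lines the 100 kb limits, filled symbols summits inside a DMSO H3K27ac peak and triangles summits with a TCF/LEF core. The summits of Rarb and most of Aldh1a2 fall inside the gene, 2 of the 3 of Crabp2 fall within 2.49 kb upstream of the start, and several of Rara and Rarg fall at the far edge of the window.

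Among the synthesizing enzymes, Aldh1a2 was covered by β-catenin without H3K27ac. Its strongest summit, at chr9:71337643 downstream of the gene, had a consensus fold enrichment of 8.78 (8.69 and 6.49 in the replicates). The summit at chr9:71230230, in an intron 14.4 kb past the start, had 8.49 (5.77 and 8.22). Another, at chr9:71296213 in its UTR, 80.4 kb past the start, had 8.19 (7.69 and 5.33). The 5 summits lay outside DMSO H3K27ac peaks, and the only H3K27ac summit of the window in any of the 4 replicate lists was one of 2.98 in DMSO replicate 1. The nearest consensus H3K27ac summit was 270 kb from the Aldh1a2 start. Aldh1a3 had 1 consensus β-catenin summit, at chr7:66388299 with 5.61 (5.27 and 5.73), which lay 8 bp from the start of its neighbor Lrrk1.

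The degrading enzymes had few summits, and those of the consensus list were far from the genes. At Cyp26b1 the single consensus summit, chr6:84477298, had 5.90 (5.58 and 4.73) and carries the TCF/LEF core printed above. It lay 117 kb from the gene start, on the downstream side. Cyp26a1 and Cyp26c1 are neighbors on chromosome 19 and share most of their windows. The strongest summit, chr19:37800446, had 9.24 (10.3 and 7.35), lay 103 kb downstream of the Cyp26a1 start and just past the Cyp26c1 window, and so was counted for Cyp26a1 alone. Replicate 2 listed 3 more summits between 3.15 and 4.62 in the shared window, including one of 3.15 with a core 1.45 kb inside Cyp26c1, and replicate 1 listed none of these. The counts of Cyp26c1 were therefore 0 and 3 in DMSO controls and 0 and 0 after C59, and they overlapped.

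At the receptors, Rarb had the strongest intronic site of the set. The summit at chr14:16525970 had 12.4 (12.4 and 10.2), carries a core, and lay 49.1 kb from the nearest Rarb start. A further summit with a core, chr14:16562070, had 8.63 (5.85 and 8.48) and lay 13.0 kb from it. All 7 Rarb consensus summits were intronic, 2 of them inside an H3K27ac peak. At the promoter itself, β-catenin was listed only in replicate 2, at chr14:16575492 with 6.34, and not in replicate 1 or the consensus. The strongest summits of the Rarg window were a pair at chr15:102355913, with 12 (10 and 11.8), and chr15:102355701, with 9.89 (9.82 and 7.98), both inside an H3K27ac peak at the upstream limit of the window, 5142 and 4930 bp from the start of the neighbor Aaas. Within Rarg, the summit at chr15:102243986 had 6.17 (5.93 and 6.24) and lay 397 bp from the start of a Rarg transcript. In the Rara window the strongest summit, chr11:99072029, had 9.12 (7.26 and 8.46) and lay in an intron of Tns4, 144 kb from the first Rara start. The summits closest to Rara itself, a pair 1.91 and 1.63 kb upstream and a pair 2.5 and 2.65 kb from an internal start, ranged from 3.8 to 5.17.

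At the binding protein genes, Crabp1 had the highest fold enrichment of all 41 summits. It was 13.0 (12.2 and 12) at chr9:54801547, 36.8 kb downstream of the Crabp1 start and between genes. That summit lay inside a DMSO consensus H3K27ac peak. The C59 consensus peak at the same place, chr9:54801601-54801908 with a fold enrichment of 3.03, began just past it, so that H3K27ac was still listed next to the site after C59. At Crabp2 the strongest summit, chr3:87946173 with 8.97 (6.94 and 8.88), lay 2.49 kb upstream of the start, and a weaker one, chr3:87947990 with 4.85 (5.18 and 4.20), 676 bp upstream. Both were inside H3K27ac peaks of both treatments. Consensus summits had to fall in peaks of both replicates, so each of the 41 had a value in both by construction. The log2 ratio of replicate 2 over replicate 1 had a median of 0.11 and an SD of 0.42.

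The TCF/LEF core was found at 7 of the 41 summits (17.1%, 95% Wilson interval 8.53 to 31.3%), and at 28.6% of all 16193 summits on chromosomes 1 to 19, X and Y. The interval of the 41 includes that value. In windows 2 kb to either side the core was present in 8.54% for these genes (7 of 82) and in 8.69% for all summits. The median fold enrichment was 7.88 for the 7 with a core and 6.02 for the 34 others. Only 3 of the 7 had their nearest TSS at 1 of the 10 genes, namely both Rarb sites and the Cyp26b1 site. Within 50 kb of the genes the core share was 7.41% (2 of 27, 95% Wilson interval 2.06 to 23.4%), and this interval does not include 28.6%.

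Inside DMSO H3K27ac peaks lay 18 of the 41 summits (43.9%, 29.9 to 59%), and 22.2% of all summits did so. Of the 25 summits nearest to 1 of the 10 genes 9 were inside, and of the 16 nearest to a neighbor also 9. When summits were assigned by the nearest TSS within 1 Mb the share was 29.0% (9 of 31, 16.1 to 46.6%). The interval of the 41 does not include 22.2%, and that of the 31 does. Less than 1 kb from a TSS lay 8 of the 41 (19.5%, 10.2 to 34.0%), and 16.3% of all summits. No difference from all summits was tested for these shares, and summits of 1 locus are not independent.

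H3K27ac at the same loci did not follow the β-catenin calls. The DMSO replicates listed 99 and 120 summits within 100 kb of the genes and the C59 replicates 112 and 99, means of 109.5 ± 14.8 and 105.5 ± 9.19 (SD, n = 2), and the ranges overlapped (exact two-sided permutation test, p = 1). Aldh1a3 was the 1 gene of the 9 with any summit whose replicate counts did not overlap, with 5 and 4 in DMSO controls and 3 and 3 after C59. Over the genome, 14.2% of the 18573 genes with a summit had counts that were higher in both DMSO replicates, and 5.71% had counts that were higher in both C59 replicates, of which none was in the set. By consensus, Rara had 28 summits in DMSO controls and 24 after C59, Rarg 19 and 18, Crabp2 14 and 13, Crabp1 10 and 9, Rarb 9 and 9, Cyp26b1 9 and 5, and Aldh1a3 4 and 2. Aldh1a2, Cyp26a1 and Cyp26c1 had none in either consensus list.

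Of the 93 DMSO consensus H3K27ac summits, 88 lay inside a C59 consensus peak (94.6%, 95% Wilson interval 88.0 to 97.7%), against 89.1% of all summits. In the other direction 76 of 80 C59 summits (95%, 87.8 to 98.0%) lay inside a DMSO peak, against 90.9% of all. Less than 1 kb from a TSS, 49 of 52 DMSO summits were inside a C59 peak, a share of 94.2%, and 95% of all such summits were. At 1 kb or more, 39 of 41 were (95.1%, 83.9 to 98.7%), and 77.7% of all distal summits. In the replicate 2 lists alone the share of all DMSO summits at the genes was 80.8% (97 of 120).

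The 5 DMSO summits outside C59 peaks had fold enrichments of 2.44 to 4.91. One lay 15.2 kb upstream of Aldh1a3, at chr7:66442736, with 2.98 (3.09 and 2.83), and another at the Crabp2 start, at chr3:87949036, with 2.44. The remaining 3 were nearest to the neighbors Wipf2, Gjd3 and Csad. The 4 C59 summits outside DMSO peaks included one in an intron of Rarb, chr14:16734229, with 5.27 (4.74 and 4.99), and one downstream of Crabp1, chr9:54803294, with 2.91 (3 and 2.43).

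Promoter acetylation divided the set. Within 1 kb of an annotated start, 6 of the 10 genes had a DMSO consensus H3K27ac summit, namely the 3 receptors, both binding proteins and Cyp26b1, and the other 4 genes, Aldh1a2, Aldh1a3, Cyp26a1 and Cyp26c1, had none in any list. The share of all protein-coding genes with such a summit was not counted, so 6 of 10 cannot be called high or low. Rarb had the highest fold enrichment, 13.5 and 13.8 in DMSO controls and 13.4 and 12.6 after C59. Rarg had 6.69 and 7.23 in DMSO controls against 6.09 and 6.11 after C59, and these did not overlap. Rara had 6.63 and 6.94 against 6.25 and 6.68, and the groups overlapped. At Crabp1 the values were 4.87 and 3.21 in DMSO controls and 3.22 and 3.59 after C59, and the DMSO replicates lay on both sides of the C59 ones. At Crabp2 they were 2.07 and 2.93 in DMSO controls, with 1.70 in C59 replicate 1 and none listed in C59 replicate 2, and the nearest C59 consensus summit lay 1.03 kb from the start. These are not values of 1 site, since the highest summit lay downstream of the start in DMSO replicate 1 and C59 replicate 1 and upstream in DMSO replicate 2. In the upstream region, chr3:87947378-87947985, the values were 3.17 and 2.93 in DMSO controls and 3.32 and 3.39 after C59. The acetylated stretch of Cyp26b1 lay 5.12 to 8.59 kb inside the gene, around starts of shorter GENCODE transcripts and not at the RefSeq start, whose nearest summit was 5.02 kb away. There the fold enrichment was 3.27 and 3.73 in DMSO controls and 3.42 and 3.36 after C59.

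Fold enrichment is relative to the surroundings, and in a broad acetylated domain the expected coverage is itself high. At the strongest Cyp26b1 summit the coverage was 137 fragments in the pooled DMSO list and the expected coverage was 7.33 times the genome-wide background, a value matched by 10.4% of all summits, and at the Crabp2 start it was 10.6 times, matched by 5.15%. At Crabp1 it was 1.38 times. The median over all DMSO H3K27ac summits was 2.16. The coverage of each summit over the background of its own library was therefore also compared, a choice made after the data were seen.

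**Figure D3:**
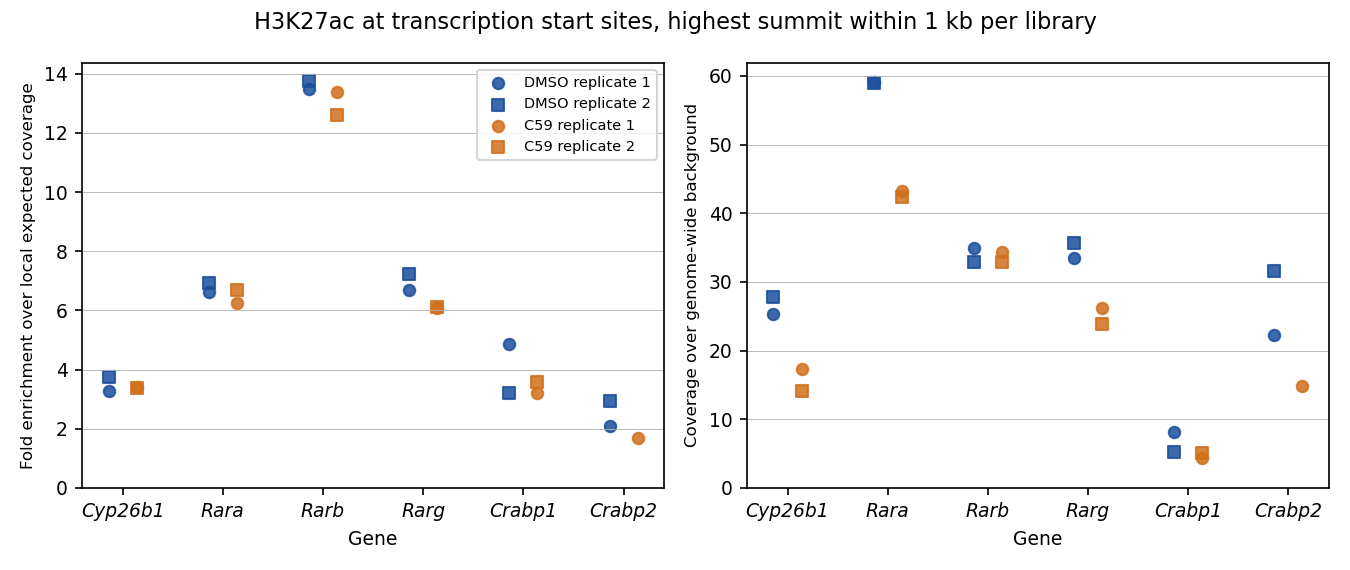
Highest H3K27ac summit within 1 kb of a start of the 6 genes that have one, as fold enrichment over the local expected coverage (left) and as coverage over the genome-wide background of the library (right), with 1 point per replicate, DMSO in blue and C59 in orange. Values are not centred on the library median. On the left the treatments lie close together, and the Crabp2 points come from different summits. On the right the C59 points of Cyp26b1, Rara, Rarg and Crabp1 lie below both DMSO points, and C59 replicate 2 has no Crabp2 summit.

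On this scale the Cyp26b1 starts had 25.3 and 27.7 times the background in DMSO controls and 17.3 and 14.1 after C59. Rara had 59.1 and 58.9 against 43.2 and 42.3, and Rarg 33.5 and 35.7 against 26.2 and 23.9. In these 3 genes both C59 values were below both DMSO values. Rarb had 35.0 and 32.9 against 34.4 and 32.9, and the groups overlapped. Crabp1 had 8.18 and 5.20 against 4.41 and 5.04, and both C59 values were below both DMSO values, but the lower DMSO value was nearer to either C59 value than to the other DMSO replicate. How many gene starts of the genome had both C59 values below both DMSO values, on either scale, was not counted. These differences can therefore not be called particular to the genes. How broad each domain is and how much coverage changed within it were not tested apart.

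To test the H3K27ac level itself, summits of the 4 replicate lists were merged into regions, and 17498 regions called in all 4 libraries were fitted with limma on log2 of the highest fold enrichment, centred on the library median. Of the 34104 regions called in any library, those not called in all 4 could not enter this fit. A region lost or gained after C59 was therefore not tested by it. At an adjusted p below 0.05 (Benjamini-Hochberg over all regions) 0 of the 47 regions near the genes were called changed, and 0% of all regions. With 2 against 2 libraries, the lack of a call does not show that a region was unchanged. At an unadjusted p below 0.05 there were 3 of the 47, against 10.2% of all. The log2 changes of the 47 ranged from -0.33 to 0.57 with a median of 0.01, and the median of all regions was 0.03. Over all regions the changes ranged from -1.07 to 1.59, and none of these was called either, the lowest adjusted p being 0.402.

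Regions at a start of the genes showed small changes. For Rarb the log2 change was -0.04 ± 0.11 (SE, limma adjusted p = 0.915), for Cyp26b1 -0.02 ± 0.12 (adjusted p = 0.975) and for Crabp1 -0.19 ± 0.23 (adjusted p = 0.803). The upstream Rarg region had -0.16 ± 0.11 and an internal one 0.11 ± 0.12. Rara had -0.15 ± 0.11 at its first start and -0.04 ± 0.12 at the internal starts with its strongest summit. The interval of the Cyp26b1 change reached from -0.30 to 0.27 and that of Crabp1 from -0.77 to 0.39, so a fall of up to 0.77 at Crabp1 was within its error. The direction at Crabp1 rested on 1 library, as the change was 0.13 without DMSO replicate 1 and -0.52 without DMSO replicate 2. Those of Cyp26b1 (0.05 without DMSO replicate 2, 0.02 without C59 replicate 1) and of the internal Rara starts (0.05 without C59 replicate 1) also changed sign. A Crabp2 region upstream of the start had 0.17 ± 0.12.

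Away from the starts, the 5 lowest values were those of regions at Wipf2 in the Rara window (-0.33 ± 0.12), at chr9:54801419-54801923 downstream of Crabp1 (-0.17 ± 0.12), at Top2a in the Rara window (-0.17 ± 0.15), at Nes in the Crabp2 window (-0.16 ± 0.19) and at Espl1 in the Rarg window (-0.10 ± 0.13). The Crabp1 region holds the strongest β-catenin summit of the set, and its fold enrichment was 2.99 and 3.46 in DMSO controls and 2.83 and 2.77 after C59. The 5 highest were at Dnaja4 in the Crabp1 window (0.57 ± 0.12), in Rarb at chr14:16553958-16555438 (0.49 ± 0.26), upstream of Aldh1a3 (0.36 ± 0.11), at Mfsd5 in the Rarg window (0.33 ± 0.26) and upstream of Crabp2 (0.30 ± 0.13). Single libraries decided several of these values. The Rarb value was 0.84 without DMSO replicate 1 and 0.15 without DMSO replicate 2, and the Mfsd5 value 0.67 and -0.01. Espl1 had 0.01 without DMSO replicate 2, Nes 0.11 without C59 replicate 1, and Top2a -0.03 without DMSO replicate 1. The Dnaja4 region had 5.38 and 5.00 in DMSO controls and 7.45 and 7.70 after C59, and an adjusted p of 0.402 by limma. The intronic Rarb region holds 2 β-catenin summits and had 4.82 and 3.10 against 4.83 and 5.89. The Aldh1a3 region, at chr7:66451613-66452479, had 4.34 and 4.41 against 5.91 and 5.14 (adjusted p = 0.438 by limma).

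With coverage over background in place of fold enrichment, again centred on the library median, 0 of the 47 regions passed the adjusted threshold of limma. An unadjusted p below 0.05 was found for 11, against 16.9% of all regions. The lowest change on this scale was that of a Cyp26b1 intron region, chr6:84585084-84586333, at -0.72 ± 0.13 (adjusted p = 0.148, with -0.10 ± 0.11 for fold enrichment). The Cyp26b1 region at the internal starts followed, at -0.63 ± 0.14 (adjusted p = 0.164). The region downstream of Crabp1 that holds the strongest β-catenin summit had -0.41 ± 0.13 (adjusted p = 0.226). Of the 47 changes on this scale, 24 were below 0. The Dnaja4 region had 0.75 ± 0.15 and the intronic Rarb region 0.74 ± 0.20, so that these kept their direction on both scales.

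**Figure D4:**
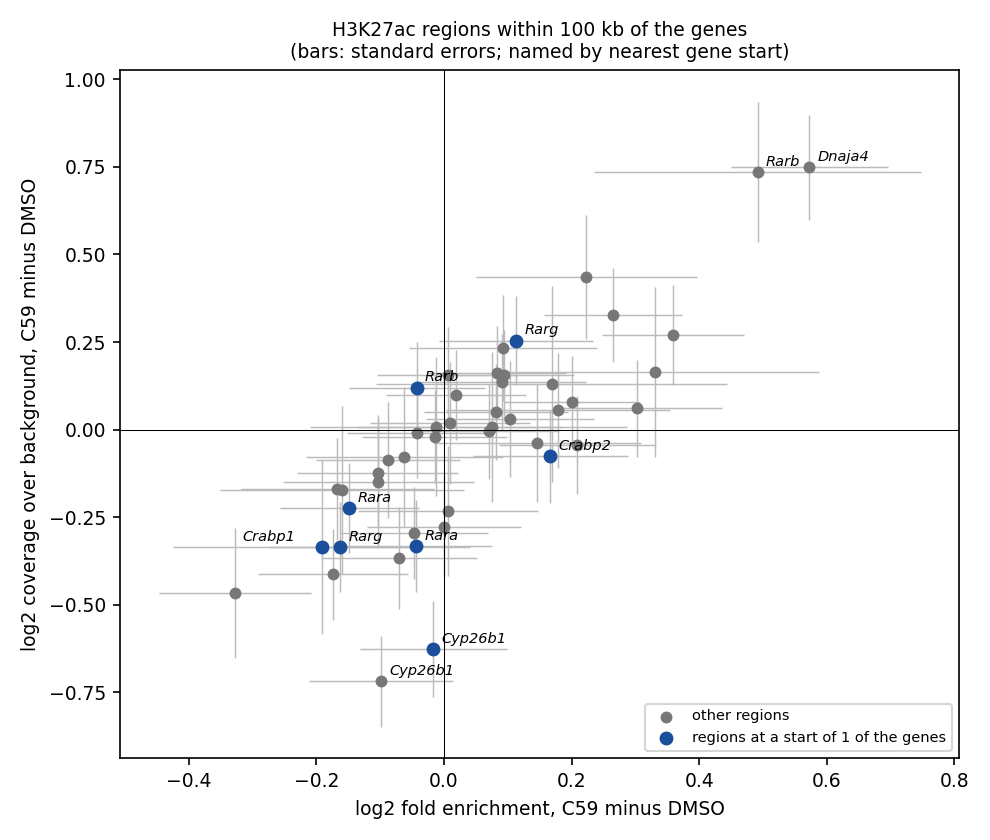
Change in H3K27ac (C59 minus DMSO) of the 47 regions tested within 100 kb of the genes, as log2 fold enrichment (x axis) and as log2 coverage over background (y axis), with SE bars; blue points are regions at an annotated start of the 10 genes, and labels give the gene with the nearest start. The 2 Cyp26b1 regions lie near 0 on the x axis and at -0.72 and -0.63 on the y axis.

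Other genes of the pathway were counted in the same way. Of 18 genes for retinol uptake and oxidation, RXR partners, co-regulators and related ligand carriers, 14 had a DMSO consensus β-catenin summit, against 58.8% of all protein-coding genes, and none had one in either C59 replicate or the C59 consensus, a loss that most genes of the genome shared. The retinol transporter gene Stra6 had 8 such summits, and the median was 2. An H3K27ac consensus summit was found at 15 of the 18 in DMSO controls and at 15 after C59, with a median of 6 in each. Of all protein-coding genes 18.4% had none in DMSO controls, and their median was 5, so these counts were near those of the genome. By limma 0 of 69 regions near these genes passed the adjusted threshold, and 4 (5.8%) had an unadjusted p below 0.05, against 10.2% of all regions.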

How the data were processed

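β-Catenin and H3K27ac ChIP-seq peak lists of mouse forelimb buds were used, 8 of single replicates and 4 consensus lists. The 4 input samples have no list and were not analysed here. Trimming by the authors used Cutadapt, mapping used Bowtie2 2.4.5, reads under a mapping quality of 30 were dropped, and macs2 2.2.7.1 was run without input. Duplicates were taken out with Picard 2.27.4 before replicates were sampled to equal size and pooled for a consensus, whose summits had to fall in peaks of both replicates. The deposited columns used are a ratio, the fold enrichment of a summit, and 2 columns on a −log10 scale, its p-value and its q-value. No blacklist was applied here, and the authors describe one only for the consensus β-catenin summits of the wild type.

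Genes were those of GENCODE M21, TSSs those of all its transcripts, and UTRs and introns its annotation. The builds matched, as 0 peaks passed a chromosome end of GRCm38. Fold enrichment and p of every row were solved for the whole-number coverage and expected coverage, to within 0.01% of the deposited −log10 p. A summit counted as still called where a peak of the other list covered it. Shares carry 95% Wilson intervals, which cover counting error only. Counts of replicates were compared by exact permutation, and H3K27ac regions by limma 3.58.1 with R 4.3.3. Other steps used Python 3.11.15, scipy 1.17.1 and pysam 0.24.0. The limma step, interval functions and coverage recovery were tested on simulated data.

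The genes, lists and tests were chosen with earlier results of these data known. Named were all 10 genes, the strongest DMSO consensus β-catenin summit of each and the 10 strongest in all, H3K27ac regions at gene starts and the 5 lowest and 5 highest others. Other features named were chosen after their values were seen. Alternatives were windows of 50 and 200 kb, the nearest TSS, a −log10 q of at least 5, each replicate alone, other overlap, motif and region rules, and the replicate block. Coverage over background was added after the data were seen.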

Additional observations from a re-analysis of the deposited data

How the results depend on the processing

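With 0 β-catenin summits of the C59 consensus within 100 kb, 1 appeared within 200 kb and 1 by the nearest TSS. The DMSO count of β-catenin was 27 within 50 kb (48 to 56 in the single replicates). H3K27ac summits numbered 158 and 145 (DMSO and C59) within 200 kb, and 47 and 40 by the nearest TSS. The TCF/LEF core share was 7.41% within 50 kb, and the share of β-catenin summits inside H3K27ac peaks was 29.0% by the nearest TSS and 63.4% with peaks extended by 1 kb. The share of H3K27ac summits still called was 80.8 to 89.9% in the single replicates. These values are counts over other windows or lists, and other causes were not tested. The other 67 alternative values stayed within 1.5 times the count or within the interval of the share. No limma alternative, leaving out each library in turn included, gave a call at the genes or elsewhere (0 in each), and none of the 171 alternative values of 18 named regions passed the threshold, though some changed direction without 1 library, as given with the results. Other rules also turned some signs. With the mean over the summits of a region, the Rarb start had 0.25 and the Cyp26b1 starts 0.03. With coverage over background, the Rarb start had 0.12 and the upstream Crabp2 region -0.08. Of 160 alternative counts by gene, 41 moved by more than 1.5 times, mostly small counts. The β-catenin count of Rara was among them, with 12 within 100 kb and 4 within 50 kb. No pairing by replicate number was seen in H3K27ac fold enrichment (correlation of same-numbered deviations 0.01 over 17498 regions). The labels do not say whether same-numbered libraries were handled together. The replicate block gave 0 calls at the genes and 0 in all. At background coverage a C59 replicate could list no β-catenin summit below a fold of 4.24, so weaker sites at that coverage were not detectable. Where the expected coverage was higher, a lower fold could be listed. An example is the 4.06 in C59 replicate 1 at the summit downstream of Cyp26b1 described below.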

Other observations

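Beyond the 100 kb windows, 6 DMSO consensus β-catenin summits had their nearest protein-coding start at 1 of the 10 genes, 5 of them upstream of Rarb and 1 downstream of Cyp26b1. The strongest of the 6 was at chr14:16935267, 116 kb from Rarb, with a fold enrichment of 19.7 (15.9 and 17.8 in the replicates), and a further one at chr14:16996963, 178 kb away, had 10.6 (10.4 and 8.99). Neither was called in a C59 replicate, and neither lay in an H3K27ac consensus peak.

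One summit near a retinoic acid gene was still called after C59. It lay 161 kb downstream of Cyp26b1, at chr6:84410250 in DMSO controls and chr6:84410234 after C59, between genes and outside H3K27ac peaks. Its fold enrichment was 9.55 and 10.6 in the DMSO replicates and 4.06 and 4.57 in the C59 replicates, so both C59 values were below both DMSO values. No TCF/LEF core lay in its 200 bp window.

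Of the 4 H3K27ac consensus summits near the genes that were listed after C59 and not in a DMSO peak, 2 lay within 1 kb of a DMSO β-catenin summit. The one in the Rarb intron lay 454 bp from a summit of 7.76 at chr14:16733775, and the one downstream of Crabp1 316 bp from a summit of 4.65 at chr9:54802978. Of all H3K27ac summits near the genes, 37.6% in DMSO controls and 45% after C59 lay that close, and none of the 5 DMSO summits outside C59 peaks did. The numbers are small, and the difference was not tested.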
